A study of Mus musculus with 4 samples.

Results

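The genes described here are 39 genes of skeletal muscle, of the 54532 genes in the deposited count table, chosen by name for their roles in muscle: 3 myogenic transcription factors, 9 genes of the thin filament, 11 of the thick filament, 3 of the scaffold, 5 of calcium handling and excitation coupling, 5 of the acetylcholine receptor and its junction, and 3 of energy supply. All 39 were found in the table. RNA was sequenced in bulk from thymic epithelial cells of C57BL/6 mice, in 4 libraries with 1 library per group. The groups are mTEC (sorted as Ly51− UEA1+) from SCD1 knockout mice, mTEC from littermate controls labelled WT, cTEC (sorted as Ly51+ UEA1−) from SCD1 knockout mice and cTEC from littermate controls. SCD1 is a desaturase of saturated fatty acids. Which part of its gene was deleted, whether the deletion was limited to a cell type, the age of the mice and how many animals gave each library are not stated in the labels.

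Medullary thymic epithelial cells (mTEC) present proteins of many peripheral tissues to developing T cells, partly under the control of the regulator Aire. Some mTEC take on the look of a peripheral cell type and are called mimetic cells. The muscle type is known for the transcription factor Myogenin and for the nicotinic acetylcholine receptor, the autoantigen of myasthenia gravis, a disease in which the thymus is often abnormal. In muscle fibres, myosin thick filaments pull on actin thin filaments when calcium binds troponin. The calcium comes from the sarcoplasmic reticulum after acetylcholine has opened its receptor at the neuromuscular junction.

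The libraries held 15740383 to 18151725 reads assigned to genes. Scd1, the targeted gene, had 278 reads in knockout mTEC against 1310 in control mTEC, and 73 in knockout cTEC against 325 in control cTEC. Aire had 22186 reads in knockout mTEC and 21598 in control mTEC, against 590 in knockout cTEC and 575 in control cTEC. By the size rule given below, 10 of 12 mTEC markers were higher in knockout mTEC than in knockout cTEC and 9 in control mTEC than in control cTEC. Among all genes the shares were 19.8% and 19.0%. Of these markers, 1 (Trp63) was lower in knockout mTEC (log2 ratio −1.21) and stood at −0.995 in control mice. Of 12 cTEC markers, 11 were lower in both, against 8.96% and 8.53% of all genes. With 1 library per group no difference has a replicate check and no p-value was computed, and each comparison is between single libraries, not conditions. The 95% intervals cover counting error only, since reads are not independent molecules. In bulk RNA, fewer cells of a type and less RNA per cell cannot be told apart.

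Summed over all members, the muscle genes were about as abundant in knockout as in control libraries, and several-fold higher in mTEC than in cTEC. Sums of some groups of them differed between the single knockout and control cTEC libraries by more than counting error. All 39 together had 6031 reads in knockout mTEC and 5847 in control mTEC, against 1470 in knockout cTEC and 1364 in control cTEC. In CPM, which scales counts to library size, that was 343.3 in knockout mTEC, 343.1 in control mTEC, 83.9 in knockout cTEC and 89.2 in control cTEC. The log2 ratio of the sums, mTEC over cTEC, was 2.03 in knockout mice (95% interval 1.95 to 2.12) and 1.94 in control mice (1.86 to 2.03). Titin, the longest gene, gave the most reads, and without it the 2 ratios were 1.81 and 1.70. At least 10 reads were found for 36 of the 39 genes in each mTEC library, for 19 in knockout cTEC and for 17 in control cTEC.

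**Figure D1:**
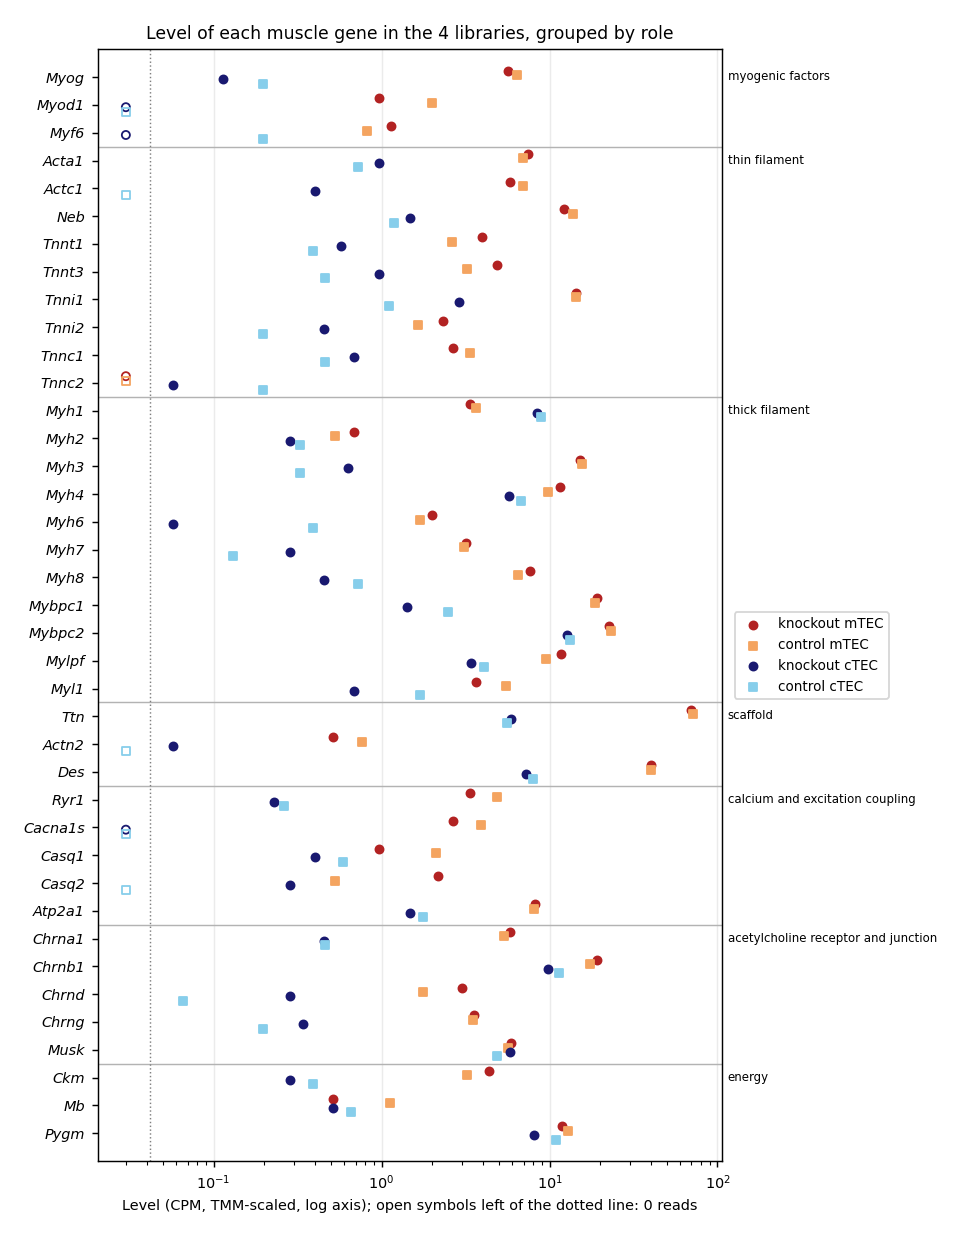
Level of each of the 39 muscle genes in CPM (log axis) in the 4 libraries, one row per gene and grouped by role, with open symbols for 0 reads. The mTEC symbols lie right of the cTEC symbols in most rows, Myh1 and Tnnc2 have the opposite order, and the Musk and Mb symbols overlap.

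Gene by gene, the order of the libraries was nearly uniform. Of the 34 members with at least 50 reads over the 4 libraries, 32 had both mTEC libraries above both cTEC libraries, against 39.9% of all 18012 genes with as many reads. For 1 member, Myh1, both mTEC libraries lay below both cTEC libraries, against 42.1% of all genes. The remaining member, Musk, overlapped. Some members, such as Myod1 with 51 reads and none in cTEC, reached the minimum through mTEC alone, where they are high. The other 5 members, with fewer reads, were Myf6, Myh2 and Actn2, which were higher in both mTEC libraries, Tnnc2, which was lower in both, and Mb, which overlapped.

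A size rule was applied to every gene: at least 50 reads over the 2 libraries compared, a ratio of 2-fold or more, and a 95% counting interval that excludes equality. In knockout mice 28 of the 39 members had enough reads, 23 were higher in mTEC and 1 was lower, against 19.8% higher and 8.96% lower among all 15962 genes with enough reads. In control mice 28 members had enough reads, 22 were higher in mTEC and 1 was lower, against 19.0% and 8.53% of 15747 genes. The median log2 ratio of the 28 members was 2.83 in knockout and 2.91 in control mice, against −0.08 and −0.06 over all genes. The rule called 21 members higher in both genotypes (background 17.0%) and 1 lower in both (background 6.70%). A gene that reaches 50 reads through mTEC alone had to differ, so these counts describe the members with enough reads and not the whole list.

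**Figure D2:**
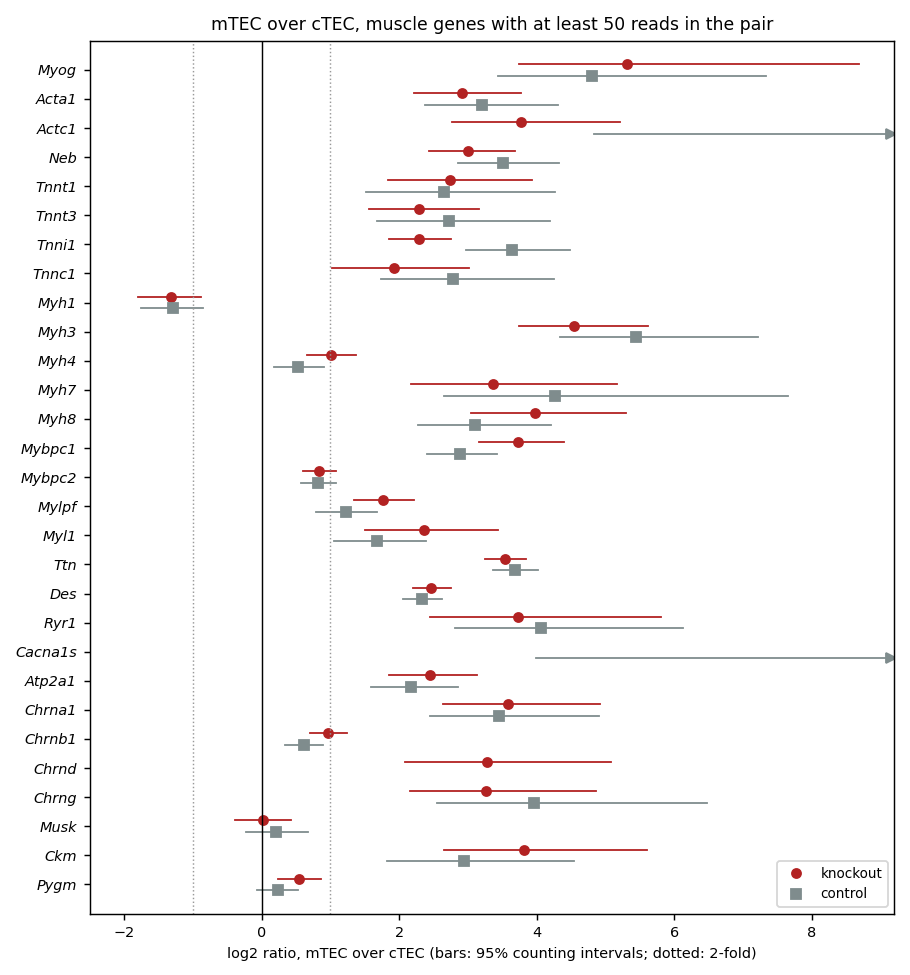
log2 ratio of mTEC over cTEC in knockout and control mice for each muscle gene with at least 50 reads in the pair, with 95% counting intervals and dotted lines at 2-fold. Genes with 0 reads in cTEC are drawn as an interval with an arrow; most genes lie between 1 and 6, while Musk, Pygm, Mybpc2, Chrnb1 and Myh4 lie near or below 2-fold and Myh1 lies below 0.

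The myogenic factors are the basic helix-loop-helix proteins that switch on muscle genes. Myog, which drives the differentiation of myoblasts into fibres, had 99 reads in knockout mTEC and 109 in control mTEC, against 2 in knockout cTEC and 3 in control cTEC. The log2 ratio of Myog, mTEC over cTEC, was 5.31 in knockout mice (3.74 to 8.69) and 4.81 in control mice (3.44 to 7.33), so nearly all of its reads came from the mTEC libraries. Myod1, the factor of muscle commitment, had 17 reads in knockout mTEC and 34 in control mTEC, and none in either cTEC library. Against a floor of 3 reads in cTEC, the Myod1 level was 5.65-fold higher in knockout mTEC and 10.2-fold higher in control mTEC. Counting intervals of its log2 ratio, mTEC over cTEC, began at 2.04 in knockout and 2.97 in control mice. Myf6 (MRF4), which acts late in differentiation, had 20 reads in knockout mTEC and 14 in control mTEC, against 0 in knockout cTEC and 3 in control cTEC. Myog was the most abundant of these factors per length, at 3.77 CPM per kilobase in knockout mTEC and 4.28 in control mTEC, while Myod1 stood at 0.520 and 1.07 and Myf6 at 0.901 and 0.650.

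These factors bind the E-box, a 6-base site with the letters CANNTG. RefSeq windows (GRCm38.p6) of the 250 bases before the start were at hand for 33 of the 39 members, in 37 windows, and both strands were searched. Chrnd, Myf6, Tnni2, Neb, Tnnt3 and Myod1 had no entry. The 5 printed here are given in lower case with E-boxes in capitals: the factor gene Myog, the receptor genes Chrna1 and Chrng, the embryonic myosin gene Myh3, all higher in mTEC, and Myh1, the member past the size rule in the lower direction.
Myog promoter (chr1:134289754-134290003, plus strand): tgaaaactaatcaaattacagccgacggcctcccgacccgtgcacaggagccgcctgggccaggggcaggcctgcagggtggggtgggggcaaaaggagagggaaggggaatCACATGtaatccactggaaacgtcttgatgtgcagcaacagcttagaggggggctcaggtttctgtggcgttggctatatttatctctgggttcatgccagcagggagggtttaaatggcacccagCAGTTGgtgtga
Chrna1 promoter (chr2:73580339-73580588, minus strand): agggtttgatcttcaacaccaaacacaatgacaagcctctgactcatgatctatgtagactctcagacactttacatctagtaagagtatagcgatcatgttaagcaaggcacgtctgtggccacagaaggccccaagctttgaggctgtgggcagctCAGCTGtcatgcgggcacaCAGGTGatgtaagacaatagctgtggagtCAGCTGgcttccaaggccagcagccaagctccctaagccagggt
Chrng promoter (chr1:87205561-87205810, plus strand): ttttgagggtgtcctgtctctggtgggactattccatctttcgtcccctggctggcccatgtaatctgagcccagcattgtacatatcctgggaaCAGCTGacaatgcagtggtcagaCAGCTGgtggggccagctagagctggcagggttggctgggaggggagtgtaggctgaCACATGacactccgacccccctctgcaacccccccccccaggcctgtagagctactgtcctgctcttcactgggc
Myh3 promoter (chr11:67078050-67078299, plus strand): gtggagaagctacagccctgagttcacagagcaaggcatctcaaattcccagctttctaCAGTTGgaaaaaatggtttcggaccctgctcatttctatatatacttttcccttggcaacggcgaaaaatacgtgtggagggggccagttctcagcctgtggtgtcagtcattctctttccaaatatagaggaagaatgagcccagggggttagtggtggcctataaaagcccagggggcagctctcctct
Myh1 promoter (chr11:67199852-67200101, plus strand): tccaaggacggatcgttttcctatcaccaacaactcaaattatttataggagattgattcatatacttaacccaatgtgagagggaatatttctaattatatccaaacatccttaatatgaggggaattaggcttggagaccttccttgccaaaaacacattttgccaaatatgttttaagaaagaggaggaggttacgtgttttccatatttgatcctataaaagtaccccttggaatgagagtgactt

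The Chrna1 and Chrng windows hold 3 E-boxes each, the Myog window 2, the Myh3 window 1 and the Myh1 window 0. The windows of Actc1 and Ryr1, genes that were higher in both mTEC libraries, also hold 0. So does the window of Myh2, whose log2 intervals of mTEC over cTEC included equality (−0.35 to 3.12 in knockout and −1.04 to 2.62 in control mice). In Chrna1 the form CAGCTG begins 92 and 44 bases before the start, and in Chrng 155 and 132 bases before it. The RefSeq start of Chrng lies 1154 bases from the start in the count table. An E-box was found in 33 of the 37 member windows (89.2%), against 66.2% of all 32851 promoter windows. The form CAGCTG, which is contained in the E-box count, was found in 18 member windows (48.6%), against 13.0% of all windows. The MEF2 site, bound by the partners of the myogenic factors, was found in 5 member windows (13.5%, against 2.92%), in Casq2, Myh1, Myh4, Myh8 and Ttn. The CArG box of serum response factor was found in 3 (8.11%, against 1.47%), in Acta1, Actc1 and Myh4. In the Myh1 window the MEF2 match overlaps a TATAAA match on the other strand. A match is a description of letters and not evidence of binding.

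Of 9 thin filament genes, 7 had enough reads in each genotype, and all 7 were higher in mTEC, against 19.8% and 19.0% of all genes. Reads in mTEC alone could bring a gene to the minimum, so this count does not describe the whole group. Tnnc2, with too few reads, was lower in both mTEC libraries. Acta1, skeletal alpha-actin, had 131 reads in knockout mTEC and 118 in control mTEC, against 17 in knockout cTEC and 11 in control cTEC. Its cardiac and fetal counterpart Actc1 had 102 in knockout mTEC and 119 in control mTEC. In cTEC, Actc1 had 7 in knockout and 0 in control. Against a floor of 3 reads it was 35.6-fold higher in control mTEC, with a counting interval of the log2 ratio that began at 4.83. Neb, nebulin, the ruler of the thin filament, had 213 in knockout mTEC and 235 in control mTEC, against 26 in knockout cTEC and 18 in control cTEC. The mTEC values did not overlap with the cTEC values for any of the 3 genes. Acta1 and Actc1 were close to each other per length, at 4.85 and 3.59 CPM per kilobase in knockout mTEC and at 4.51 and 4.32 in control mTEC.

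The troponins, which make contraction depend on calcium, come in slow and fast forms, and both were present in mTEC. Tnni1, slow troponin I, had 251 reads in knockout mTEC and 244 in control mTEC, against 51 in knockout cTEC and 17 in control cTEC. Tnni2, the fast form, had 41 in knockout mTEC and 28 in control mTEC, against 8 in knockout cTEC and 3 in control cTEC. Per length, Tnni1 was the more abundant of the pair, at 3.97 CPM per kilobase in knockout mTEC and 3.98 in control mTEC, while Tnni2 stood at 1.56 and 1.10. Slow troponin T, Tnnt1, had 70 in knockout mTEC and 45 in control mTEC, against 10 in knockout cTEC and 6 in control cTEC. Its fast form Tnnt3 had 85 in knockout mTEC and 55 in control mTEC, against 17 in knockout cTEC and 7 in control cTEC. Here the order was the other way, with Tnnt3 at 3.06 and 2.04 CPM per kilobase and Tnnt1 at 1.81 and 1.20 in knockout and control mTEC. Per kilobase of the longest transcript the gap was smaller, with Tnnt3 at 4.48 and 2.99 and Tnnt1 at 3.76 and 2.49. Slow and cardiac troponin C, Tnnc1, had 47 in knockout mTEC and 57 in control mTEC, against 12 in knockout cTEC and 7 in control cTEC.

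Fast troponin C, Tnnc2, was the one member with no read in either mTEC library, and it had 1 in knockout cTEC and 3 in control cTEC. A count of 0 allows up to 0.171 CPM in knockout mTEC and 0.176 in control mTEC (3 reads). Tnnc2 overlaps Ube2c on the opposite strand, and 55.0% of the 50-base windows of its longest transcript also occur in Ube2c. Ube2c had 392 reads in knockout mTEC and 443 in control mTEC. The strand setting of the counting is not stated, so the Tnnc2 count is uncertain. The same holds in part for Atp2a1 (18.3% of windows shared, mainly with Rabep2), Cacna1s (16.4%, with the antisense gene Gm37759, at 19 reads in knockout mTEC and 24 in control mTEC) and Mb (34.0%, with Gm49540).

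The myosin heavy chains, the motors of the thick filament, differed among themselves. Myh3, the embryonic form, had 267 reads in knockout mTEC and 266 in control mTEC, against 11 in knockout cTEC and 5 in control cTEC, a log2 ratio of 4.54 in knockout mice (3.74 to 5.62) and 5.44 in control mice (4.34 to 7.21). Myh8, the perinatal form, had 134 in knockout mTEC and 110 in control mTEC, against 8 in knockout cTEC and 11 in control cTEC. Myh7, the slow and cardiac form, had 56 in knockout mTEC and 53 in control mTEC, against 5 in knockout cTEC and 2 in control cTEC. For these 3 genes every mTEC library stood far above every cTEC library. Myh6, cardiac alpha myosin, had 35 in knockout mTEC and 29 in control mTEC, against 1 in knockout cTEC and 6 in control cTEC, and did not reach 50 reads in mTEC and cTEC of either genotype together. Myh7 shares 28.2% of its windows with other genes, mainly Myh6.

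Among the adult fast forms the gap was smaller for Myh4, and Myh1 had the opposite order. Myh4 (type 2B) had 202 reads in knockout mTEC and 168 in control mTEC, against 100 in knockout cTEC and 104 in control cTEC, a log2 ratio of 1.01 in knockout mice (0.66 to 1.37) and 0.53 in control mice (0.17 to 0.90). Myh1 (type 2X) had 59 in knockout mTEC and 62 in control mTEC, against 148 in knockout cTEC and 136 in control cTEC. It was the only member past the size rule in the lower direction, with a log2 ratio of −1.32 in knockout mice (−1.79 to −0.89) and −1.28 in control mice (−1.75 to −0.85). Myh2 (type 2A) had 12 in knockout mTEC and 9 in control mTEC, against 5 in each cTEC library. Its interval of mTEC over cTEC included equality in both genotypes. Myh3, Myh2, Myh1, Myh4 and Myh8 lie in that order in a cluster on chromosome 11, and Myh1 (ENSMUSG00000056328, mm10 67200052 to 67224575, plus strand) shares 32.1% of its 50-base windows with other genes, mainly Myh2, Myh4 and Myh8. Whether shared reads moved between these genes was not tested.

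Per kilobase of gene length, Myh3 led the heavy chains in mTEC, at 2.51 CPM per kilobase in knockout and 2.58 in control, with Myh4 next at 1.91 and 1.64. In cTEC Myh1 led, at 1.33 in knockout and 1.40 in control, with Myh4 next at 0.948 and 1.13 and Myh3 at 0.104 and 0.0540. Myh8 stood at 0.648 in knockout mTEC and 0.548 in control mTEC. The table gives Myh8 a length of 11772 bases, while its longest GENCODE M21 transcript has 6149, and per kilobase of transcript it stood at 1.24 and 1.05.

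**Figure D3:**
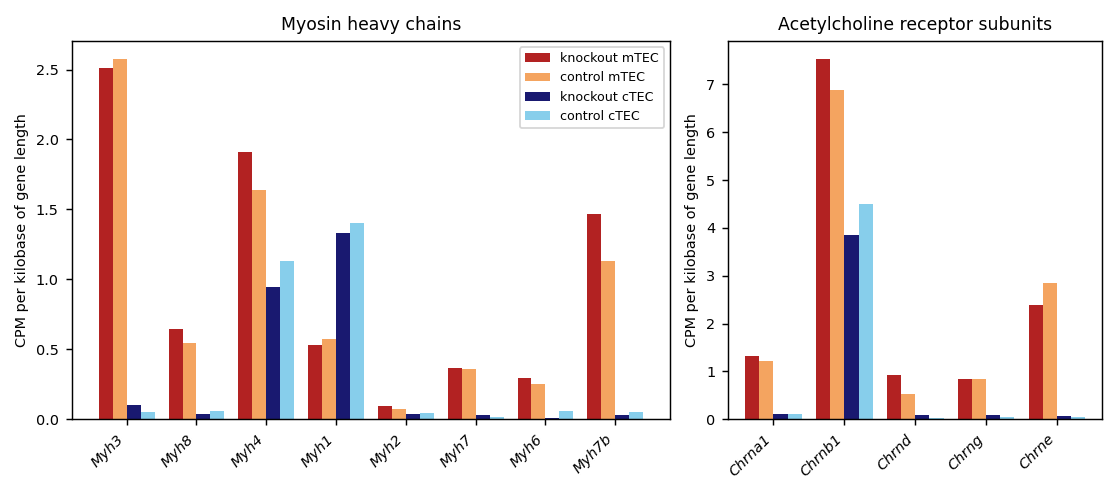
Level per kilobase of gene length (CPM per kilobase, linear axes from 0) of the myosin heavy chains (left) and acetylcholine receptor subunits (right) in the 4 libraries. Myh3 is the tallest heavy chain in both mTEC libraries and Myh1 in both cTEC libraries, and Chrnb1 is the tallest subunit in all 4.

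The other thick filament genes were higher in mTEC, with some clearly present in cTEC. Mybpc1, slow myosin-binding protein C, had 337 reads in knockout mTEC and 316 in control mTEC, against 25 in knockout cTEC and 38 in control cTEC. Mybpc2, the fast form, had 398 in knockout mTEC and 397 in control mTEC, against 222 in knockout cTEC and 201 in control cTEC. The slow form was therefore several-fold higher in mTEC, while the log2 ratio of the fast form was 0.84 in knockout mice (0.60 to 1.08) and 0.82 in control mice (0.58 to 1.08), under 2-fold. Mylpf, the fast regulatory light chain, had 205 in knockout mTEC and 162 in control mTEC, against 60 in knockout cTEC and 62 in control cTEC. Myl1, the fast essential light chain, had 64 in knockout mTEC and 94 in control mTEC, against 12 in knockout cTEC and 26 in control cTEC. Both light chains passed the size rule in both genotypes.

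Of the scaffold genes, Ttn and Des were the most deeply covered members. Ttn, titin, the elastic spring of the sarcomere, had 1216 reads in knockout mTEC and 1221 in control mTEC, against 104 in knockout cTEC and 85 in control cTEC, a log2 ratio of 3.54 in knockout mice (3.25 to 3.85) and 3.68 in control mice (3.37 to 4.02). Des, desmin, the intermediate filament of all muscle types, had 706 in knockout mTEC and 688 in control mTEC, against 127 in knockout cTEC and 122 in control cTEC. Within each population the genotypes were close for both genes. Actn2, the alpha-actinin of the Z-disc in slow and cardiac muscle, had 9 in knockout mTEC and 13 in control mTEC, against 1 in knockout cTEC and 0 in control cTEC. Per length the order differed from that of the reads. Des stood at 10.7 CPM per kilobase in knockout mTEC and 10.8 in control mTEC, and Ttn at 0.592 and 0.613.

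Of the 5 genes of calcium handling and coupling, 2 had enough reads in knockout mice and 3 in control mice. All of those were higher in mTEC, against 19.8% and 19.0% of all genes. Reads in mTEC alone could bring them to the minimum, so this count does not describe the whole group. Cacna1s, the voltage sensor in the membrane, had 47 reads in knockout mTEC and 67 in control mTEC, and none in either cTEC library. Against a floor of 3 reads it was 15.6-fold higher in knockout mTEC and 20.0-fold higher in control mTEC. Counting intervals of its log2 ratio began at 3.61 and 3.99. Ryr1, the calcium release channel that it opens, had 59 in knockout mTEC and 83 in control mTEC, against 4 in each cTEC library. Atp2a1 (SERCA1), the pump that returns calcium to the reticulum, had 144 in knockout mTEC and 138 in control mTEC, against 26 in knockout cTEC and 27 in control cTEC. For the sensor, the channel and the pump, both mTEC libraries lay above both cTEC libraries. Casq1 and Casq2 are the calsequestrins that store calcium. Casq1 had 17 in knockout mTEC and 36 in control mTEC, against 7 in knockout cTEC and 9 in control cTEC, and its interval of mTEC over cTEC included equality in knockout mice (−0.07 to 2.79). Casq2 had 38 in knockout mTEC and 9 in control mTEC, against 5 in knockout cTEC and 0 in control cTEC.

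The muscle acetylcholine receptor is built from alpha, beta, delta and either a gamma (fetal) or an epsilon (adult) subunit. Chrna1, the alpha subunit, to which most autoantibodies in myasthenia gravis bind, had 102 reads in knockout mTEC and 91 in control mTEC, against 8 in knockout cTEC and 7 in control cTEC. Its log2 ratio of mTEC over cTEC was 3.59 in knockout mice (2.64 to 4.92) and 3.45 in control mice (2.44 to 4.90). Chrnd, the delta subunit, had 53 in knockout mTEC and 30 in control mTEC, against 5 in knockout cTEC and 1 in control cTEC. Chrng, the fetal gamma subunit, had 62 in knockout mTEC and 60 in control mTEC, against 6 in knockout cTEC and 3 in control cTEC. For these 3 subunits both mTEC libraries lay above both cTEC libraries.

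Chrnb1, the beta subunit, stood apart with 335 reads in knockout mTEC and 297 in control mTEC, against 171 in knockout cTEC and 174 in control cTEC, a log2 ratio of 0.96 in knockout mice (0.70 to 1.24) and 0.61 in control mice (0.34 to 0.89). Musk, the kinase that gathers receptors under the nerve, had 104 in knockout mTEC and 96 in control mTEC, against 102 in knockout cTEC and 74 in control cTEC, and its interval included equality in both genotypes (−0.38 to 0.43 in knockout mice and −0.23 to 0.68 in control mice). Per length, Chrnb1 was the most abundant subunit in all 4 libraries, at 7.53 CPM per kilobase in knockout mTEC, 6.89 in control mTEC, 3.85 in knockout cTEC and 4.50 in control cTEC. Chrna1 stood at 1.32 in knockout mTEC and 1.22 in control mTEC, and at 0.104 in both cTEC libraries.

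The adult epsilon subunit Chrne, which is not a member and was picked after its values were seen, had 71 reads in knockout mTEC and 82 in control mTEC, against 2 in knockout cTEC and 1 in control cTEC. Both the adult and the fetal subunit were thus present in mTEC. Per kilobase of gene length Chrne stood at 2.39 in knockout mTEC and 2.85 in control mTEC, and Chrng at 0.848 and 0.846. Per kilobase of the longest transcript Chrne stood at 2.50 and 2.98 and Chrng at 1.27 and 1.27, which leaves Chrne the higher of the pair.

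Across all members, Mylpf and Des were the most abundant per length in mTEC, with Mylpf at 11.0 CPM per kilobase in knockout and 8.95 in control. In cTEC Chrnb1 led, at 3.85 in knockout and 4.50 in control, with Mybpc2 and Mylpf close behind. Per kilobase of the longest transcript, Chrnb1 and Mylpf were nearly level in cTEC, at 4.53 and 4.47 in knockout cTEC and at 5.28 and 5.30 in control cTEC.

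Genes of energy supply were mixed. Ckm, muscle creatine kinase, had 77 reads in knockout mTEC and 55 in control mTEC, against 5 in knockout cTEC and 6 in control cTEC, a log2 ratio of 3.81 in knockout mice (2.66 to 5.60) and 2.94 in control mice (1.83 to 4.55). Pygm, muscle glycogen phosphorylase, had 208 in knockout mTEC and 220 in control mTEC, against 142 in knockout cTEC and 168 in control cTEC, so that its log2 ratio was 0.55 in knockout mice (0.23 to 0.87) and 0.23 in control mice (−0.06 to 0.53). Mb, myoglobin, which stores oxygen, had 9 in knockout mTEC and 19 in control mTEC, against 9 in knockout cTEC and 10 in control cTEC. Ckm was thus concentrated in mTEC, whereas Pygm was found at similar depth in both populations.

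The level in cTEC was also taken as a share of that in mTEC. Over the 28 members with enough reads the share had a median of 13.7% in knockout and 12.8% in control mice. For Aire the share was 2.67% in knockout and 2.97% in control mice. Of these 28, Myog (2.02%) lay under Aire in knockout mice, and Myh3 (2.10%), Actc1 and Cacna1s (both 0 reads in cTEC) in control mice. With fewer than 50 reads in the pair, Cacna1s, Myod1 and Myf6 in knockout mice and Myod1, Actn2 and Casq2 in control mice also had 0 reads in cTEC. Ttn stood at 8.57% and 7.76%, Des at 18.0% and 19.8%, Mybpc2 at 55.9% and 56.5%, and Myh1 at 251% and 245% in knockout and control mice. What the cTEC reads of mTEC-rich members come from was not tested.

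Lists of other muscle genes were read in the same way. Among all genes with enough reads, 19.8% were higher and 8.96% lower in knockout mTEC than in knockout cTEC, and 19.0% and 8.53% in controls. Of 40 further sarcomere genes, 26 had enough reads in knockout mice and 24 in control mice. Of these, 18 were higher and 1 lower in knockout mTEC, and 14 higher and 2 lower in control mTEC, with medians of 1.55 and 1.36. The most abundant of them were Actn3, fast alpha-actinin, at 311 CPM in knockout mTEC and 291 in control mTEC, against 111 in knockout cTEC and 119 in control cTEC, and the tropomyosins Tpm1, Tpm2 and Tpm3, which non-muscle cells also express and which were within 2-fold. Of 35 further genes of coupling and the muscle membrane, 23 had enough reads in each genotype. In mTEC 12 were higher and 2 lower in knockout mice, and 11 higher and 2 lower in control mice. Of these, Jph1, Asph, Eno3 and Pfkm had the most reads and were within 2-fold. Of 10 further junction genes, 9 had enough reads, and 2 were higher and 2 lower in each genotype, near the shares of all genes (19.8% and 8.96% in knockout mice). Colq, the collagen tail of acetylcholinesterase, was higher (log2 2.26 in knockout and 2.02 in control mice), Agrn, agrin, was lower (−1.19 and −1.13), and Ache and Utrn were within 2-fold.

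Among 19 further regulators of myogenesis, 16 had enough reads, 5 were higher in knockout mTEC and 4 in control mTEC than in cTEC of the same genotype, and none was lower. These counts are not far from the 19.8% and 19.0% of all genes. The most abundant, Srf and the inhibitors Id1, Id2 and Id3, were within 2-fold. The fusion factor Mymk had 54 reads in knockout mTEC and 52 in control mTEC, against 10 in knockout cTEC and 4 in control cTEC, and its partner Mymx had 34 in knockout mTEC and 30 in control mTEC, against 1 in each cTEC library. These genes were picked after their values were seen.

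Markers of some other cell types were also higher in mTEC, and those of others were not. Among all genes with enough reads, 19.8% were higher and 8.96% lower in knockout mTEC than in knockout cTEC, and 19.0% and 8.53% in controls. Of 7 muscle stem cell genes, 5 had enough reads, and 4 were higher in knockout mTEC and 3 in control mTEC. The most abundant were Heyl and Spry1, and of these Heyl was higher in knockout mTEC and Spry1 was within 2-fold. The summed level of the 7 genes was 117 CPM in knockout mTEC and 109 in control mTEC, against 83.1 in knockout cTEC and 77.3 in control cTEC. Pax7, the defining gene of that cell, had 86 reads in knockout mTEC and 90 in control mTEC, against 3 in knockout cTEC and 8 in control cTEC, and Calcr had 137 in knockout mTEC and 104 in control mTEC, against 1 in each cTEC library. Myf5, named here outside the rule of most reads, had 0 reads in knockout mTEC and 3 in control mTEC, and 0 in both cTEC libraries. Of 13 cardiac genes, 1 of which is a member, 9 had enough reads in knockout mice and 8 in control mice. Among those, 8 were higher in knockout mTEC and 7 in control mTEC. The sums of all 13 were 115.3 and 114.9 CPM in mTEC against 32.0 and 35.5 in cTEC. The 4 cardiac genes with the most reads were Tnnt2, Tnni3, Mybpc3 and Gata4. Of these, Tnni3 had 242 reads in knockout mTEC and 297 in control mTEC, against 222 in knockout cTEC and 199 in control cTEC.

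The next counts stand beside the same shares of all genes, 19.8% higher and 8.96% lower in knockout mice and 19.0% and 8.53% in control mice. The 15 smooth muscle and pericyte genes, with Des among them, had 13 with enough reads in each genotype. They had 8 higher in knockout mTEC and 6 in control mTEC. Their sum was 1079 CPM in both mTEC libraries, against 453 in knockout cTEC and 503 in control cTEC, with Acta2 (log2 1.31 in knockout and 1.28 in control mice), Rgs5 (3.20 and 2.99), Myh11 (0.39 and 0.22) and Notch3 (1.06 and 0.94) the most abundant. Of 5 B cell genes, 4 had enough reads, and all 4 were higher in mTEC in each genotype. The sum of the 5 was 25.5 CPM in knockout mTEC and 24.4 in control mTEC, against 5.25 in knockout cTEC and 4.58 in control cTEC. Of 8 neuron and Schwann cell genes, 6 had enough reads, and 4 were higher in mTEC in each genotype. The sums of these 8 genes were 245 CPM in knockout mTEC and 227 in control mTEC, against 27.0 in knockout cTEC and 30.3 in control cTEC. Of 14 thymocyte genes, 12 had enough reads, and none was higher and 1 was lower in mTEC in each genotype. The 8 general thymic epithelial genes all had enough reads and gave the same counts. Of 8 endothelial genes, 5 had enough reads in knockout mice and 4 in control mice. Among those, 1 was higher in knockout mTEC and 1 was lower in control mTEC than in cTEC of the same genotype. Fibroblast genes had 3 higher and 3 lower of 10 in knockout mice and 2 higher and 3 lower in control mice, with Dcn lower (−2.08 and −2.06). The part of these cells in the muscle gene differences was not tested.

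Lists of 2 other mimetic programmes lay on either side of equality by their medians. Of 15 neuroendocrine genes, 13 had enough reads and 11 were higher in mTEC in each genotype, against 19.8% and 19.0% of all genes. The medians of the list were 2.64 in knockout and 2.61 in control mice. Of 13 ciliated genes in the table, 13 had enough reads in knockout mice and 12 in control mice, and none was higher in mTEC. Lower in mTEC were 4 in knockout and 3 in control mice, against 8.96% and 8.53% of all genes. The medians of the ciliated list were −0.58 and −0.24. These differences between lists were not tested.

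Between genotypes, the muscle genes were close in mTEC. The log2 ratio of the summed reads, knockout over control, was 0.00073 (−0.05 to 0.05). Of 33 members with enough reads, none was higher and 2 were lower in the knockout library, against 0.504% higher and 0.431% lower among all 16466 genes, and their median log2 ratio was 0.0030, against 0.0064 over all genes. The lower members were Casq1 (17 reads in knockout mTEC against 36 in control mTEC, log2 ratio −1.10, −2.05 to −0.26) and Myod1 (17 against 34, −1.02, −1.98 to −0.16). Both rest on about 50 reads in the pair, and with a prior of 2 reads in place of 0.5 Myod1 stood at −0.97, under 2-fold. Myog, by comparison, had a log2 ratio of −0.18 (−0.59 to 0.22), Chrna1 0.12 (−0.30 to 0.54), Ttn −0.05 (−0.17 to 0.07) and Des −0.01 (−0.16 to 0.15).

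Several members lay between equality and 2-fold in mTEC. Chrnd (53 reads in knockout mTEC against 30 in control mTEC, log2 ratio 0.77, 0.10 to 1.47), Tnnt1 (0.59, 0.03 to 1.17) and Tnnt3 (0.58, 0.08 to 1.10) had intervals above 0. Myl1 (64 against 94, −0.59, −1.08 to −0.13) and Ryr1 (59 against 83, −0.53, −1.04 to −0.04) had intervals below 0. Over all 16466 genes, 1905 intervals lay above 0 and 1682 below it. Casq2 had 38 reads in knockout mTEC against 9 in control mTEC, a log2 ratio of 1.97 (0.96 to 3.27), but 47 reads in the pair are under the minimum. The 2 calsequestrin genes thus lay in opposite directions.

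In cTEC, few members could be compared. The log2 ratio of the summed reads, knockout over control, was −0.09 (−0.20 to 0.02), a total in which groups of genes lay on opposite sides. The 9 thin filament genes together had 149 reads in knockout cTEC against 72 in control cTEC (log2 ratio 0.85, 0.44 to 1.28). Tnni1 gave 51 and 17 of these reads and was the only 1 of the 9 with enough reads for the size rule. Thick filament genes stood at −0.20 (−0.36 to −0.03) and energy genes at −0.44 (−0.75 to −0.12). The energy sum was mostly Pygm, with 142 of 156 reads in knockout cTEC and 168 of 184 in control cTEC. Among the 14445 single genes with enough reads, 2358 intervals lay above 0 and 2095 below it. In mTEC the same 3 sums stood at 0.02 (−0.12 to 0.15), 0.04 (−0.05 to 0.14) and −0.04 (−0.28 to 0.19). Of 12 members with enough reads, 1 was higher and none was lower in knockout cTEC, against 0.492% higher and 0.706% lower among all 14445 genes. Their median log2 ratio was −0.18, against 0.01 over all genes, and 9 of the 12 lay below 0, as did 6888 of the 14445 genes. The higher one was Tnni1, with 51 reads in knockout cTEC against 17 in control cTEC (log2 ratio 1.36, 0.57 to 2.27), which in the mTEC pair stood at −0.0032 (−0.26 to 0.26). Mybpc1 (25 against 38, −0.79, −1.59 to −0.04) and Pygm (142 against 168, −0.44, −0.77 to −0.11) had intervals below 0, as had 2095 of the 14445 genes, and Myh1 stood at −0.08 (−0.42 to 0.27). Myl1 had 12 reads in knockout cTEC against 26 in control cTEC, too few for the size rule.

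**Figure D4:**
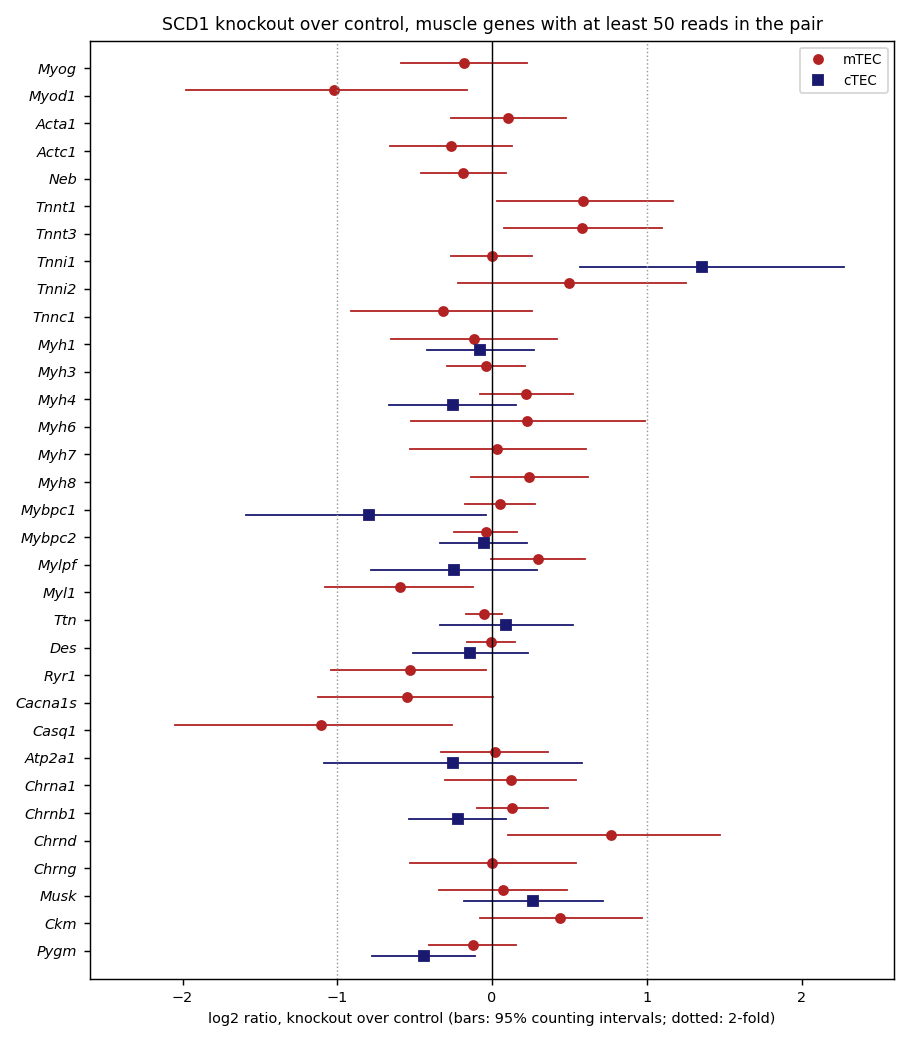
log2 ratio of knockout over control in mTEC and in cTEC for each muscle gene with at least 50 reads in the pair, with 95% counting intervals and dotted lines at 2-fold. Most genes lie within 2-fold with intervals that include 0; Myod1 and Casq1 in mTEC and Tnni1 in cTEC lie beyond a dotted line.

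Outside the 39 members, 2 of the 40 further sarcomere genes passed the size rule between genotypes in mTEC. Myoz1, a Z-disc protein of fast fibres, had 35 reads in knockout mTEC against 15 in control mTEC (log2 ratio 1.15, 0.27 to 2.16), and Nrap, a scaffold of forming myofibrils, had 40 against 18 (1.09, 0.27 to 2.0). None of the further coupling, junction or regulator genes passed in mTEC, and none of the 4 lists had a gene past the rule in cTEC. Beside these comparisons, the summed thymocyte markers were at 263 CPM in knockout mTEC against 217 in control mTEC and at 394 in knockout cTEC against 305 in control cTEC. The cTEC markers were at 4047 in knockout mTEC against 3397 in control mTEC and at 23959 in knockout cTEC against 19245 in control cTEC. The neuroendocrine genes were at 1574 in knockout mTEC against 1889 in control mTEC and at 1304 in knockout cTEC against 1380 in control cTEC. Chga made up most of that sum, at 906 CPM in knockout mTEC against 1265 in control mTEC. In cTEC, Chga stood at 1212 in knockout and 1273 in control. The median log2 ratio of the neuroendocrine list was −0.02 in mTEC and −0.19 in cTEC, and none of its genes passed the size rule. Endothelial markers were at 34.5 in knockout mTEC against 24.1 in control mTEC and at 32.2 in knockout cTEC against 21.6 in control cTEC. Of the endothelial markers, Cldn5 was higher in knockout mTEC (53 reads against 10 in control mTEC) and Cdh5 in knockout cTEC (53 against 17 in control cTEC). The ciliated gene Spag17 was higher in knockout cTEC too (40 against 17). Their part in the muscle gene values was not tested.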

How the data were processed

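Raw counts of reads assigned to genes were deposited by the authors for 4 libraries, made with a NEBNext Ultra RNA kit. Per the submitters' processing notes, CASAVA, HISAT2 2.0.5 and featureCounts 1.5.0-p3 were used with mouse build mm10. Not given in the sources used here are the annotation release, the strand setting and the handling of multi-mapping reads. Per the file headers, the table also gives gene length in bases, of another unit (other).

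Counts were scaled by TMM (edgeR 4.0.16, R 4.3.3), with library totals and DESeq2 1.42.0 size factors as alternatives. Intervals and ratios were computed in Python 3.11.15 (scipy 1.17.1, pandas 2.3.3, numpy 2.4.6). Log2 ratios used a prior of 0.5 reads per library. Ratios have exact conditional binomial (Clopper-Pearson) and levels exact Poisson 95% intervals, for counting error only. The size rule was run on the whole table and checked on simulated counts. No test was run: with 1 library per group, an additive model would take its 1 residual degree of freedom from the interaction of genotype and population. Differences of genotype ratios between populations have delta-method counting intervals.

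The members and the 17 further lists were chosen with earlier results of these data known. Every member is named, with values in each library if it has at least 50 reads over the 4 libraries or is a myogenic factor; of each further list, up to 4 genes with the most reads and any gene past the size rule between genotypes. Genes named outside that rule are said to be so. Sequence sharing was measured with 50-base windows of the longest GENCODE M21 transcript, on either strand. Promoters are from RefSeq, GRCm38.p6.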

Additional observations from a re-analysis of the deposited data

Results flagged for a closer look

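Tnni1 and Mybpc1 had knockout-over-control ratios that differed between populations by more than counting error, and with 1 library per group this difference was not tested over samples. For Tnni1, slow troponin I, the log2 ratio in mTEC minus that in cTEC was −1.36 (−2.19 to −0.54), from 251 reads in knockout mTEC against 244 in control mTEC and 51 in knockout cTEC against 17 in control cTEC. For Mybpc1, slow myosin-binding protein C, the difference was 0.84 (0.09 to 1.60), from 337 reads in knockout mTEC against 316 in control mTEC and 25 in knockout cTEC against 38 in control cTEC. These were 2 of 12 members with enough reads in both pairs, while among all 13953 such genes 24.2% had an interval of the difference that excluded 0. The other slow or cardiac members, Tnnt1, Tnnc1, Actc1, Myh7, Myh6 and Actn2, had under 50 reads in the cTEC pair.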

How the results depend on the processing

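Other scaling, read minimums of 10 and 200, a prior of 2 reads and leaving out the 5 members that share 25% or more of their windows (Tnnc2, Myh1, Myh2, Myh7 and Mb) were tried. No result reversed. All 468 ratios of single members recomputed under another scaling or prior stayed within their counting intervals, and 81 of 100 values for the group stayed close to the reported one. For single members this was nearly fixed in advance, because most intervals are wide, with an open end where a count is 0. Scaling also moved ratios little. The all-gene median of knockout mTEC over knockout cTEC was −0.08 with TMM and 0.02 with library totals. With library totals, the log2 ratio of summed reads, mTEC over cTEC, was 2.13 in knockout and 2.03 in control mice, without window-sharing members 2.18 and 2.08, and without Ttn 1.81 and 1.70. With 200 reads, 8 members were higher in knockout mTEC and 7 in control mTEC, with medians of 1.76 and 2.33. In control mice 0 were lower, as Myh1 (62 reads in control mTEC and 136 in control cTEC) fell under that minimum. Fewer members reach 200 reads in the pair than 50, and the share of all genes past the rule at 200 reads was not computed. With a prior of 2 reads the control median was 2.75. Without window-sharing members 0 were lower in either genotype, as Myh1 is one of them. Between genotypes in mTEC, 1 member (Casq2) was higher with 10 reads, 0 were lower with 200 reads and 1 (Casq1) was lower with a prior of 2. In cTEC, 1 (Myl1) was lower with 10 reads and 0 were higher with 200. The causes were not tested beyond the number of genes each setting leaves. Levels per kilobase of transcript were added after the data were seen. No paired analysis was possible because the groups share fewer than 2 replicate numbers. A fit of population with genotype as a term, which leaves 1 residual degree of freedom, was not run. Depth limits the cTEC values: 20 members in knockout cTEC and 22 in control cTEC had under 10 reads.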

Other observations

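Some muscle genes outside the 39 lay with Myh1, higher in cTEC than in mTEC, and were picked after their values were seen. Pgam2, muscle phosphoglycerate mutase, had 72 reads in knockout mTEC and 60 in control mTEC, against 268 in knockout cTEC and 287 in control cTEC. Dysf, dysferlin, which reseals the fibre membrane, had 123 in knockout mTEC and 126 in control mTEC, against 355 in knockout cTEC and 326 in control cTEC. Lmod3, an actin nucleator of the thin filament, had 30 in knockout mTEC and 24 in control mTEC, against 86 in knockout cTEC and 103 in control cTEC. Each had a log2 ratio under −1 in both genotypes.

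At the other end, also picked after their values were seen, Sypl2, a protein of the triad membrane, had 117 reads in knockout mTEC and 145 in control mTEC, against 0 in knockout cTEC and 1 in control cTEC. Scn4a, the muscle sodium channel, had 92 in knockout mTEC and 107 in control mTEC, against 2 in knockout cTEC and 8 in control cTEC. Myh7b, a slow-tonic myosin heavy chain, had 171 in knockout mTEC and 128 in control mTEC, against 4 in knockout cTEC and 5 in control cTEC. Pvalb, parvalbumin, a calcium buffer of fast fibres, had 302 in knockout mTEC against 192 in control mTEC (log2 ratio 0.61, 0.34 to 0.88). Cav3, muscle caveolin, had 0 reads in all 4 libraries.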
